A study of Mus musculus with 6 samples.

Results

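Adipocyte-like nuclei were selected from single-nucleus RNA sequencing (snRNA-seq) of whole subcutaneous tumors, and 66 of 18014 kept nuclei met the rule. The selection read the counts themselves. A nucleus needed at least 2 unique molecular identifiers (UMIs, the counted RNA molecules) in at least 2 of the 7 genes Adipoq, Plin1, Cidec, Pparg, Lipe, Acsl1 and Pde3b, with at least 1 UMI of Adipoq, Plin1 or Cidec. It also had to hold under 0.5% of its UMIs in the tumor genes Hmga2, Mecom and Slit2 together and under 2 UMIs of the macrophage genes Adgre1, Cadm1 and Mrc1. The 13 genes of the rule therefore differ by construction, and their values below are a description.

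The tumors grew from TC1 cells, a mouse lung tumor line, injected under the skin of C57BL/6 mice and collected 24 days later. All mice were MCT2 loxP/loxP; Cre+, with a tamoxifen-inducible Cre active throughout the body, and were 8 weeks old when treatment began. The knockout (KO) group received tamoxifen on 5 consecutive days to delete MCT2, a monocarboxylate transporter encoded by Slc16a7, and the control (CO) group received vehicle, with injection of tumor cells 2 days later. Each group had 3 libraries, named CO1 to CO3 and KO1 to KO3. A Cre-negative group given tamoxifen was not part of the design, so the drug and the deletion cannot be told apart. The labels give lung as the tissue, although the tumors were subcutaneous. The libraries held 13252572 to 22057084 UMIs and kept 1790 to 4776 nuclei each, with library medians of 1099 to 4897.5 UMIs per nucleus.

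Adipocytes store triglyceride in a large lipid droplet and release it as fatty acids. Perilipin (Plin1) coats the droplet and controls access of lipases such as the hormone-sensitive lipase (Lipe), Cidec fuses droplets into larger ones, and Pparg is the transcription factor that sets up the adipocyte program. Adiponectin (Adipoq) is the hormone most specific to these cells. Subcutaneous tumors lie next to the fat layer of the skin, and adipocytes there are known to exchange lipids and metabolites with tumor cells.

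The 66 nuclei were not 66 different cell barcodes. They carried 16 distinct barcodes, the 16-base tags that mark droplets within a library, and 64 of the 66 nuclei carried a barcode that was also deposited in at least 1 other library. Of the 16 barcodes, 11 were present in all 6 libraries, 2 in 4 libraries and 1 in 2 libraries, and the remaining 2 were present in CO1 alone and in CO2 alone. Any pair of libraries shared 15 to 19 kept barcodes, of which 8 to 10 were adipocyte-like in both. The share of nuclei with a shared barcode was 97.0% among adipocyte-like nuclei. It was 0.522% among the 10160 nuclei over the tumor limit, 0.246% among the 3253 nuclei over the macrophage limit and 0.904% among the 4535 remaining nuclei. The recurring barcodes are printed here because every result on these nuclei rests on them. They are named B1 to B11 for those found in 6 libraries, B12 and B13 for those in 4, and B14 for that in 2, read from the deposited barcode lists.
B1: atcctattccatactt
B2: tcactcgcaagctcta
B3: agccacggtactgact
B4: gtgcagcgttgggaac
B5: acagaaagtcgagtga
B6: tgtcagaagacgcagt
B7: tcctttccacaaggtg
B8: cactaagcaactacgt
B9: tcggtctgtggcttgc
B10: acctacctcccaggca
B11: atacttcagggactgt
B12: tgttactgtgttactg
B13: tctaccggtgttaacc
B14: gtggaagcaatgagcg

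Each recurring barcode had nearly the same UMI total in every library. Barcode B1 held 1522, 1761 and 1367 UMIs in CO1, CO2 and CO3, and 1492, 1661 and 1737 in KO1, KO2 and KO3. Barcode B5 held 694, 843 and 724 UMIs in CO1 to CO3 and 756, 765 and 840 in KO1 to KO3. The CO and KO totals of both barcodes overlapped, and the order of the barcodes by depth was nearly the same throughout. Over the 11 barcodes found in 6 libraries, the summed UMIs ranged from 9164 in CO3 to 11309 in CO2, a ratio of 1.23, whereas the median of all kept nuclei ranged over a ratio of 4.46 between KO3 and KO2. Every deposited barcode had at least 500 UMIs, and B12 to B14 lay between 500 and 659 UMIs where they were present, so whether they were below this limit in the other libraries was not tested.

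**Figure D1:**
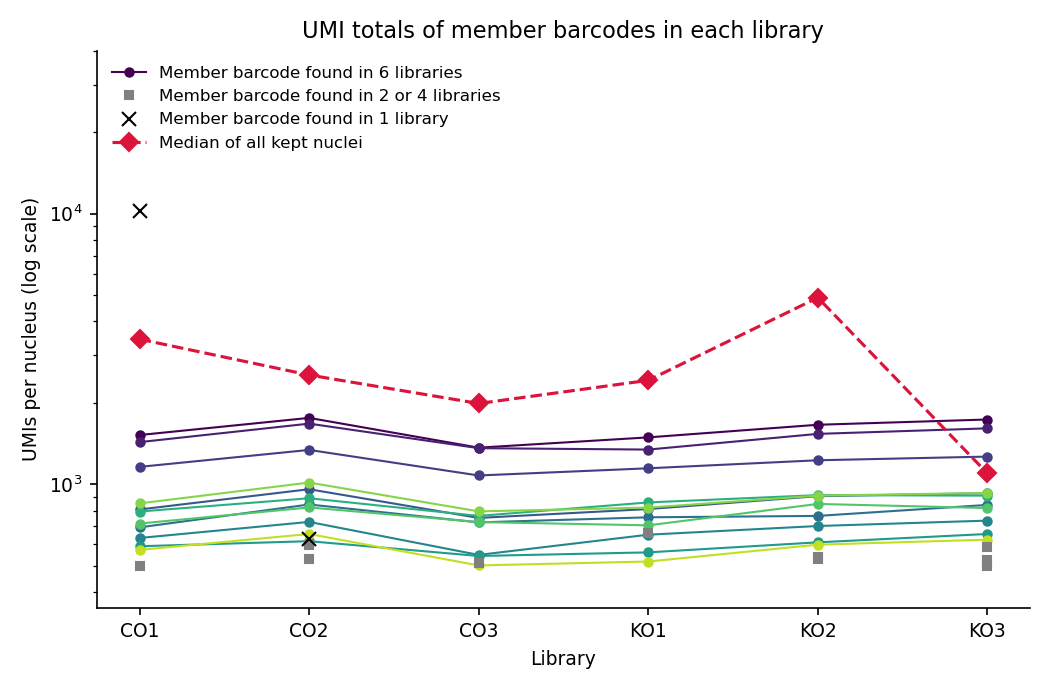
UMIs per nucleus (log scale) for the barcodes of adipocyte-like nuclei in each library, including libraries where the barcode missed the rule. The 11 lines of barcodes found in 6 libraries run nearly flat, while the median of all kept nuclei (red diamonds) falls from 4897.5 in KO2 to 1099 in KO3.

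The gene counts of a barcode also recurred. In a chi-square test over genes with at least 5 expected UMIs per library, the nuclei of the same barcode in different libraries gave a statistic per degree of freedom with a median of 0.965 over 14 barcodes. For 13 of the 14 the counts agreed within sampling noise, and the exception was B14, with 4.22 over only 2 libraries and 3 genes. Different barcodes within a library differed beyond that noise, with 4.14 to 7.55 per degree of freedom in the 6 libraries. These tests cover the more abundant genes, 1 to 26 per barcode and 3 to 7 per library.

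Across all 7966 genes detected in these nuclei, Pearson's r of the log-transformed levels had a median of 0.275 for the 165 pairs with the same barcode in different libraries. It was 0.194 for the 330 pairs of different barcodes in the same library. These pairs share nuclei and genes, so the values are a description. Among the 66 nuclei of the 11 barcodes found in 6 libraries, of which 56 met the rule, the most similar nucleus carried the same barcode in 55 cases. Counted once each, the adipocyte-like nuclei amount to 16 barcodes. How the same barcodes, most with similar counts in the genes tested, came to be in up to 6 libraries was not tested.

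**Figure D2:**
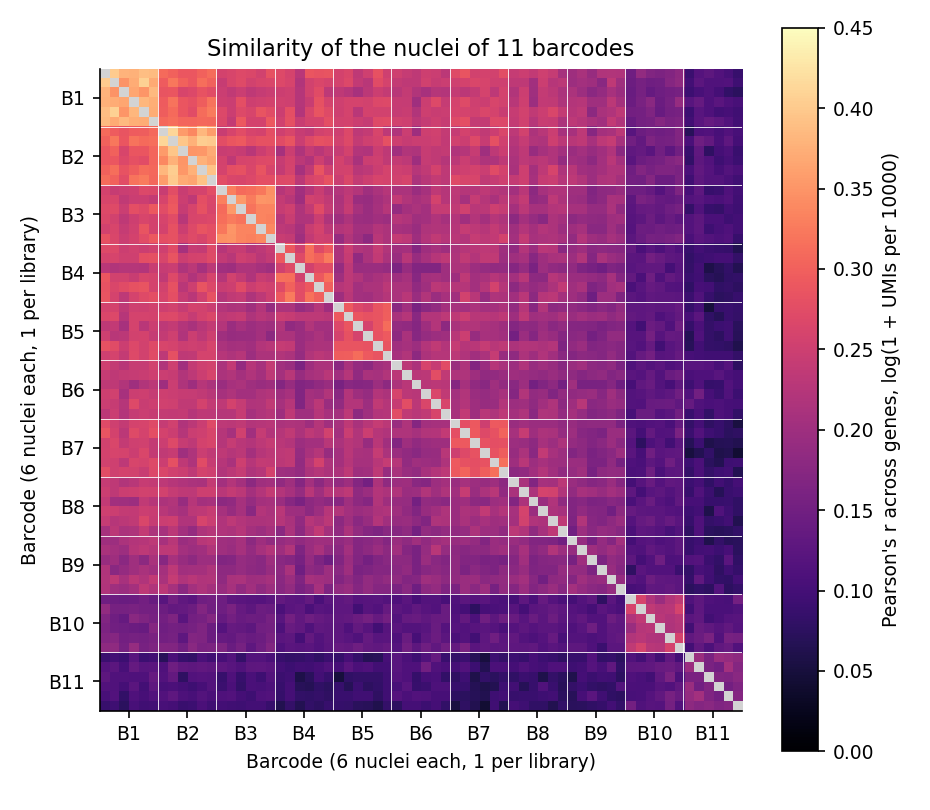
Pearson's r between nuclei across 7966 genes, on log(1 + UMIs per 10000), for the 11 barcodes found in 6 libraries, each with 6 nuclei in the order CO1 to CO3 and KO1 to KO3. The blocks on the diagonal, which are pairs with the same barcode, are brighter than the rest of their row for most barcodes, with a median of 0.275 against 0.194 for different barcodes of a library, and B10 and B11 are darker against all others.

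Recurrence was not restricted to adipocyte-like nuclei. Of all deposited barcodes, 23 were present in at least 3 libraries, and 13 of these were adipocyte-like at least once. Of the other 10, 3 had between 205590 and 319481 UMIs in 1 library and only 542 to 832 UMIs in their other libraries. Those smaller totals were 0.201% to 0.368% of the larger one. None of the recurring adipocyte-like barcodes had such a deep nucleus in any of the 6 libraries. The 2 barcodes found in 1 library differed from the others. The nucleus in CO1 (B15) held 10246 UMIs but only 1 of Adipoq and 1 of Pde3b, and it supplied 51.4% of the adipocyte-like UMIs of that library. It also held 19 UMIs of Hmga2, 7 of Mecom and 9 of Slit2, and 0 of Fabp4, Cd36 and Car3. The nucleus in CO2 (B16) held 629 UMIs, with 1 each of Adipoq and Cidec and 3 of Acsl1. The summed level of 24 genes of adipocyte identity outside the rule was 1.95 UMIs per 10000 in B15 and 31.8 in B16. Its median was 493 in adipocyte-like nuclei with a shared barcode and 12.99 in nuclei over the tumor limit. The adipocyte-like name therefore rests on very few marker UMIs in B15 and B16, and other genes do not bear it out in B15. Without the shared barcodes, these 2 CO nuclei were all that remained, and the KO libraries held 0.

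Adipoq, Plin1 and Cidec, of which the rule required a UMI, lay mostly in the recurring barcodes, which follows in part from that requirement. Of the 279 UMIs of Adipoq, Plin1 and Cidec in all kept nuclei, 252 were in adipocyte-like nuclei and 249 in those with a shared barcode. Cidec (chromosome 6, 113424634 to 113435760, GRCm38) was found in 60 of the 66 nuclei, with 24, 34 and 32 UMIs in CO1 to CO3 and 20, 24 and 33 in KO1 to KO3. The CO and KO counts overlapped. Plin1 (chromosome 7, 79720218 to 79732903) was found in 38 nuclei, with 6, 15 and 4 UMIs in CO1 to CO3 against 9, 12 and 17 in KO1 to KO3. Adipoq (chromosome 16, 23146536 to 23158028) was found in only 19 nuclei, with 2 to 5 UMIs per library.

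As a background, Cidec had a UMI in 0.0591% of the nuclei over the tumor limit and in 0 of 3253 over the macrophage limit, which allows a share of up to 0.0922% with a UMI. After every nucleus was thinned to 500 UMIs, since adipocyte-like nuclei had a median of 809.5 UMIs and the nuclei over the tumor limit 4857.5, the share with Cidec was 75.8% against 0.0197%. Pparg, Lipe, Acsl1 and Pde3b, by contrast, were spread over other nuclei too. Pparg had 94 UMIs in adipocyte-like nuclei and 984 in the nuclei over the macrophage limit, and the adipocyte-like nuclei held 5.13% of all Pparg UMIs and 0.626% of all Pde3b UMIs.

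Most nuclei passed the marker threshold with room to spare. The 66 nuclei held 2 to 34 UMIs of the 7 markers, with a median of 11.5. All 7 markers were seen in 6 nuclei, at least 4 in 54 and exactly 2 in 5. At the edge of the rule, 3 members held exactly 2 marker UMIs, and 3 nuclei outside it had 1 UMI of Adipoq, Plin1 or Cidec and no other marker. The highest tumor-gene share among members was 0.392%, and the lowest among nuclei kept out by it alone was 0.723%.

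The recurring barcodes missed the rule 12 times among kept nuclei, 11 of them for want of a UMI of Adipoq, Plin1 or Cidec. Most of the 12 were nuclei of B10 and B11, which are described below. The rule had chosen their barcodes in another library, so their levels are a description and no independent check. Their summed level of the 24 genes of the list of adipocyte identity outside the rule was 137 to 555 UMIs per 10000, with a median of 175. The adipocyte-like nuclei with a shared barcode had a median of 493, and the nuclei over the tumor limit a median of 12.99.

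Genes outside the rule were compared between adipocyte-like nuclei and all other nuclei, from counts summed per library and fitted with edgeR with library as a block. Of 11250 genes tested, 757 were higher (6.73%) and 624 lower (5.55%) in adipocyte-like nuclei, by at least 0.58 on the log2 scale at an adjusted p of at most 0.05. The fit treats 6 libraries as replicates although they hold the same barcodes, so its p-values are too small. With each barcode kept in 1 library only, 234 of 11149 genes were higher (2.10%) and 31 lower, and 221 of the 234 were among the 757. The split also moved with the scaling. With DESeq2 size factors in edgeR 478 genes were higher and 3436 lower, and the median of all genes shifted from -0.71 to -1.65 on the log2 scale. Of the genes tested, 3078 had 0 UMIs in adipocyte-like nuclei, where a fitted fold depends on the prior, and with these placed at the limit of 3 counts over all members the median of all genes was 0.27. List medians are given below as fitted and, where it differs, in this bounded form. Nuclei rich in tumor or macrophage genes were kept out by the rule, so lower calls of genes that such cells express can be set by it.

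Genes of adipocyte identity outside the rule were higher together. All 18 of its 24 genes that could be tested were higher, with a median log2 fold change of 10.17 against -0.71 (bounded 0.27) over all genes tested. With each barcode kept once, all 11 that could be tested were higher. Genes nearly absent from other nuclei, such as Slc7a10, Retn, Trarg1 and Adrb3, had enough counts for a test only through adipocyte-like nuclei. Such genes could only come out higher, so both counts are a description. The summed level of the list in nuclei with shared barcodes was 477, 520 and 501 UMIs per 10000 in CO1 to CO3 and 469, 525 and 489 in KO1 to KO3. The CO and KO values overlapped fully, and the level was 20.6 over the tumor limit, 3.31 over the macrophage limit and 6.89 in the remaining nuclei. Ghr, the growth hormone receptor, had 828 UMIs in adipocyte-like nuclei and a log2 fold change of 3.02 ± 0.23 (SE), smaller than others of the list because other nuclei held 16.8 UMIs per 10000.

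The 20 genes with the largest log2 fold changes, from 10.06 to 13.39, included many known from mature white adipocytes. Slc7a10, an amino acid transporter of the white adipocyte surface, had 43 UMIs in adipocyte-like nuclei and 4 in all other nuclei together. Ces1d, a carboxylesterase that acts on stored lipid, had 49 against 7, and Cyp2e1, a cytochrome P450, 40 against 6. Pck1, which makes the glycerol backbone of triglyceride from pyruvate, had 47 against 9. The folds are large because the genes were nearly absent elsewhere, and with so few UMIs outside they are imprecise.

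Receptors formed another group among these 20. Npr3, which clears natriuretic peptides, had 161 UMIs against 38 in all other nuclei, and its level in nuclei with shared barcodes was 29.9, 31.0 and 27.4 UMIs per 10000 in CO1 to CO3 and 23.7, 25.8 and 26.1 in KO1 to KO3. Adrb3, the beta-adrenergic receptor through which catecholamines start lipolysis in mouse fat, had 79 against 22. Acvr1c, an activin receptor of adipocytes, had 124 against 106. The CO and KO levels of Adrb3 and Acvr1c overlapped, whereas those of Npr3 did not and were higher in CO, with a log2 fold change (KO minus CO) of -0.17 ± 0.18 (SE) that did not pass the test (adjusted p = 0.996, edgeR).

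Enzymes, secreted proteins and others made up the rest. Car3, a carbonic anhydrase abundant in fat, had 336 UMIs and a level of 43.3 to 63.9 UMIs per 10000. Fam13a had 257 UMIs, Lpl, the lipase that frees fatty acids from circulating lipoproteins, had 132, Acss3, a mitochondrial acyl-CoA synthetase, had 99, and Aldh1a1, which makes retinoic acid, had 95. Retn, the adipocyte hormone resistin, had 19 UMIs. Mageb18 (chromosome X, 92118879 to 92599572), of a gene family known from testis and tumors, had 381 UMIs against 177 elsewhere. The remaining 6 genes were Trarg1, which regulates glucose transporter traffic, Pnpla3, Gnai1, Tmem45b, Prelp and Itih5. Each of the 20 genes was found in 6 to 14 barcodes. Besides Npr3, Itih5 was the only one of the 20 without overlap between CO (8.24, 10.04 and 8.35 UMIs per 10000) and KO (4.52, 7.22 and 6.30), and it had too few counts for the test of KO against CO. Of the 121 genes that could be tested there, 8 did not overlap (6.61%). With each barcode kept once, 5 of the 20 could be tested, and all 5 were higher. The 20 were picked as the largest positive folds and this fit reused some of the same nuclei, so it is no independent check.

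**Figure D3:**
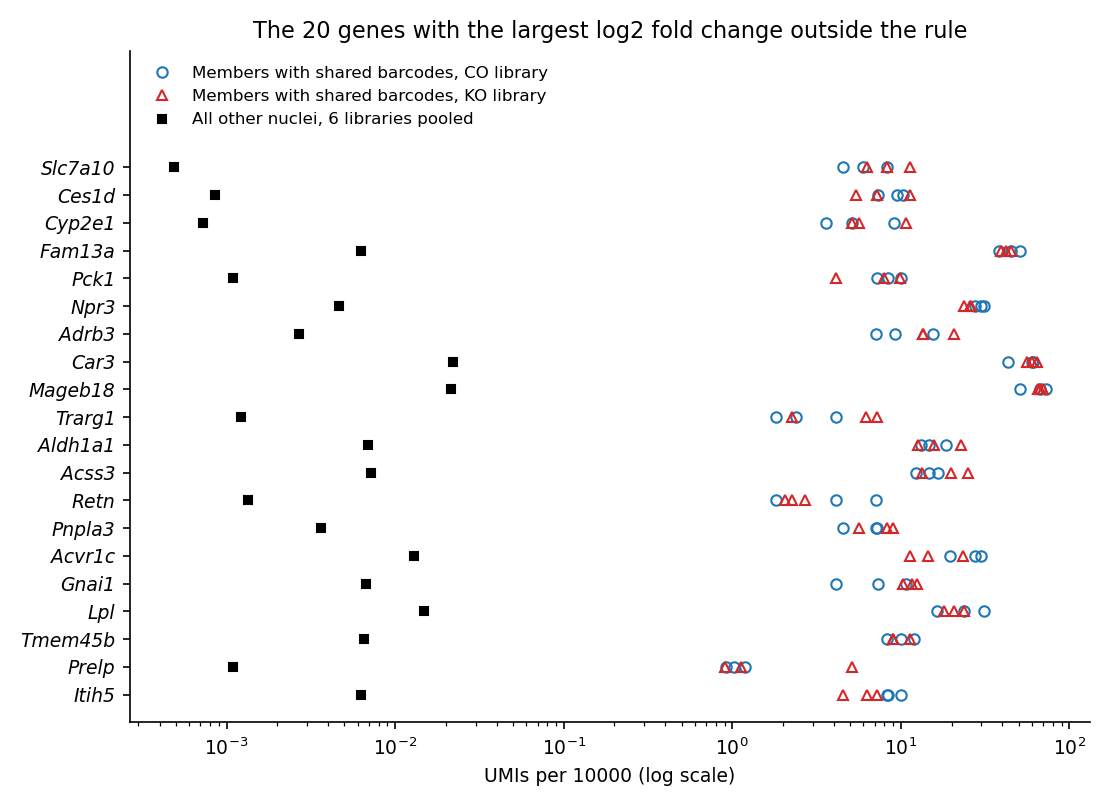
UMIs per 10000 (log scale) of the 20 genes with the largest log2 fold changes outside the rule, in adipocyte-like nuclei with shared barcodes (1 point per library, CO circles and KO triangles) and in all other nuclei pooled (squares). Both CO and KO points lie far above the squares, as for Car3 with 43.3 to 63.9, and they overlap for each gene except Npr3 and Itih5, where the CO points are higher.

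Genes of lipid uptake and storage were higher in part. Over all genes tested, 6.73% were higher and 5.55% lower, and 2.10% were higher with each barcode kept once. These shares are the background for this list and those below. In the list of lipid uptake and handling, 5 of 13 tested genes were higher, none was lower and the median log2 fold change was 1.24 (bounded 1.42). Keeping each barcode once left 4 of 13 higher. Fabp4, which carries fatty acids in the cytoplasm, had 175 UMIs and a log2 fold change of 8.87 ± 0.33, and the fatty acid transporter Cd36 had 169 UMIs and 9.94 ± 0.35. In the list of lipid droplet and lipolysis, 8 of 13 were higher, with a median of 2.74, but only 3 of 11 with each barcode kept once. Adrb3 and Pnpla3, among the 8, had enough counts for a test only through adipocyte-like nuclei. They could only come out higher, so the count of 8 is a description. Mgll, which completes lipolysis, had a log2 fold change of 8.72 ± 0.35, the droplet protein Plin4 8.17 ± 0.43, and Prkar2b, a regulatory subunit of the kinase that triggers lipolysis, 4.96 ± 0.29. Hcar1, the lactate receptor of adipocytes that restrains lipolysis, had 0 UMIs in adipocyte-like nuclei.

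Synthesis genes were mixed. In the list of fatty acid and triglyceride synthesis, 9 of 21 tested genes were higher and 2, Scd2 and Elovl6, were lower, with a median log2 fold change of 1.40. Keeping each barcode once left only 2 of 19 higher, Lpin1 and Dgat1, and 0 lower. Lpin1, which makes diacylglycerol, was higher by 4.85 ± 0.32, and Dgat1, which makes triglyceride, by 3.36 ± 0.45. Acaca and Scd1, enzymes of fatty acid synthesis and desaturation, were higher by 1.76 ± 0.35 and 3.13 ± 0.49, but neither passed with each barcode kept once (adjusted p = 0.57 and 0.682, edgeR). Fasn, the fatty acid synthase, and Elovl6 had 0 UMIs.

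Insulin signalling and adipogenic transcription factors were also raised in part. Of 15 tested insulin signalling genes, 8 were higher and 1, Igf1r, was lower, against 4 of 14 higher and 0 lower with each barcode kept once. Trarg1, among the 8, had enough counts only through adipocyte-like nuclei and could only come out higher. The insulin receptor gene Insr was higher by 2.97 ± 0.31 and Pik3r1, a subunit of the kinase that relays its signal, by 2.15 ± 0.35. Foxo1, a transcription factor restrained by insulin, was also called higher, but not with each barcode kept once (adjusted p = 0.491, edgeR). Of 20 tested transcription factor genes, 10 were higher and 1, Cebpb, was lower, with a median of 1.86 (bounded 2.29). When each barcode was kept once, 5 of 19 were higher and 0 lower. The summed level of this list in nuclei with shared barcodes was 107, 110 and 112 UMIs per 10000 in CO1 to CO3 and 151, 125 and 123 in KO1 to KO3. It was higher in each KO library than in each CO library, and this sum was not tested. Of the 19 lists, only this one and the fibroblast marker list did not overlap between the groups. A share of 0.1 of the 20 arrangements of the group labels would separate 3 from 3 libraries fully, in either direction. Among 19 lists, such a lack of overlap is therefore no sign of a difference between KO and CO. Within it, Ebf1 alone had 45.3, 55.7 and 51.3 UMIs per 10000 in CO1 to CO3 and 74.6, 62.9 and 60.3 in KO1 to KO3. Against all other nuclei, Ebf1 and Ebf2, early factors of the lineage, were higher by 4.20 ± 0.26 and 5.93 ± 0.32, and Zbtb16 by 9.60 ± 0.34. The glucocorticoid receptor gene Nr3c1 was higher by 1.75 ± 0.36, but did not pass with each barcode kept once (adjusted p = 0.804, edgeR).

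Genes of brown and beige adipocytes were nearly absent. Of the 15 genes of that list in the files, 12 had 0 UMIs in adipocyte-like nuclei, Ucp1, the uncoupling protein of brown fat, and Cidea among them, and 3 could be tested. Ppargc1a, a coactivator of mitochondrial genes, was the only one called higher, with 8 UMIs, of which 4 were in the CO1 nucleus B15. In the list of mitochondrial fatty acid oxidation, 2 of 16 tested genes were higher, Acadm and Etfa, with a median log2 fold change of 0.17 (bounded 0.38). Neither passed with each barcode kept once (adjusted p = 0.783 and 0.553, edgeR).

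Lactate and pyruvate handling bears on the transporter that was deleted. In that list, 3 of 13 tested genes were higher, Pck1, Pcx and Mpc2, none was lower, and the median log2 fold change was 0.36 (bounded 0.69). Pcx, which feeds pyruvate into glycerol synthesis, was higher by 4.85 ± 0.35. Mpc2, a subunit of the mitochondrial pyruvate carrier, was higher by 2.10 ± 0.58, and not with each barcode kept once (adjusted p = 0.904, edgeR). The transporter genes had few UMIs, with 4 of Slc16a7, 3 of Slc16a1 and 1 of Slc16a3. For Slc16a7 the log2 fold change of 1.94 ± 0.89 did not pass the test (adjusted p = 0.139, edgeR).

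Genes of adipocyte progenitors and genes reported in adipocytes near tumors gave both directions. Of 11 tested progenitor genes, 2 were higher, Zfp423 and Zfp521, and 3 were lower, Pdgfra, Cd34 and Dlk1, with a median of -2.24 (bounded 0.07). With each barcode kept once, 0 of 10 were higher and 0 lower, and Zfp423, Pdgfra and Dlk1 did not pass (adjusted p = 0.596, 0.275 and 0.262, edgeR). All 5 UMIs of Pdgfra and 67.6% of the 34 UMIs of Dlk1 came from the CO1 nucleus B15. Of 12 tested genes of stress and dedifferentiation, 3 were higher, Col5a3 and Vegfa among them, and 4 were lower, with a median of -2.46 (bounded 0.04). None of 12 was called in either direction with each barcode kept once, with adjusted p = 0.646 for Col5a3 and 0.328 for Vegfa (edgeR). The leptin gene Lep had 7 UMIs, all in nuclei with shared barcodes, and was not tested.

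Markers of other cell types had few UMIs, though not all lists were below their level in other nuclei. In adipocyte-like nuclei with shared barcodes, markers of T and NK cells and of skeletal muscle had 0 UMIs, and endothelial markers had 8 UMIs of 58699, with Tek, Egfl7 and Tie1 at 0. Macrophage markers had 12 UMIs, with Csf1r, Cd68 and Itgam at 0. Pericyte and smooth muscle markers had 1 UMI. Dendritic cell markers had 6 UMIs, all of Zbtb46, at 0 to 4.52 UMIs per 10000 per library. Other nuclei had 0.979 (remaining nuclei), 0.578 (over the tumor limit) and 0.438 (over the macrophage limit). Fibroblast markers had 29 UMIs, 19 of them of Gsn, which adipocytes also express, and their summed level was 7.21, 7.30 and 7.16 UMIs per 10000 in CO1 to CO3 and 4.52, 0 and 3.60 in KO1 to KO3. The fibroblast list had 14.1 over the tumor limit, 5.46 over the macrophage limit and 11.5 in the remaining nuclei. Among the 19 lists, the groups did not overlap only in the fibroblast list and that of transcription factors, which is near the share of label arrangements given above. The fibroblast levels rest on few UMIs and were not tested. The 3 tumor genes of the rule had 2.06, 1.83 and 3.58 UMIs per 10000 in CO1 to CO3 and 2.26, 9.28 and 7.20 in KO1 to KO3, from 2 to 9 UMIs per library. In the nuclei over the macrophage limit they had 3.38, 4.80 and 6.78 in CO and 5.14, 18.9 and 20.6 in KO. Both were highest in KO2 and KO3, and the ratio of the second to the first was 1.64 to 2.87. The part of these molecules in any result was not tested.

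Some genes differed more between recurring barcodes than between the libraries of a barcode. Mageb18 had 23 to 38 UMIs in every nucleus of B1 and 15 to 28 in every nucleus of B4, but at most 7 in any nucleus of the other barcodes. Acsl1, which activates fatty acids, had 9 to 14 UMIs per nucleus in B1 and 3 to 11 in B6, and at most 3 in B2, which was about as deep as B1. Nnat, an imprinted gene of adipocytes, had 5 to 12 UMIs in every nucleus of B5 and 0 in every nucleus of B2 and B4. Fam13a had 11 to 23 in B3 and 0 to 2 in B5. Pparg had 21 UMIs over the 6 nuclei of B5 and 0 over those of B3, which held 16 UMIs of Cidec and 9 of Plin1. These genes were chosen after their values were seen.

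B10 and B11 stood apart from the others. B10 had 23 to 31 UMIs of the hemoglobin gene Hbb-bs in every nucleus, 155 in all, and 18 of Retnla, and met the rule in 3 of 6 libraries. Hbb-bs had 0 UMIs in the nuclei of B1 to B9 and B11. B10 also held 4 UMIs of the macrophage gene Mrc1, which had 0 in B1 to B9 and B11. Among adipocyte-like nuclei, it held 2 of the 3 UMIs of Cd163 and the only UMI each of Lyz2, Cdh5 and Kdr. With 2 UMIs of Adipoq and only 1 each of Plin1, Cidec and Pparg, the adipocyte-like name rests on few marker UMIs in B10. B11 had 12.95% mitochondrial UMIs against 0.0559% to 1.88% in B1 to B9, held 32 UMIs of Fabp4 with only 1 each of Plin1, Cidec and Pparg, and met the rule in 1 of 6 libraries.

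**Figure D4:**
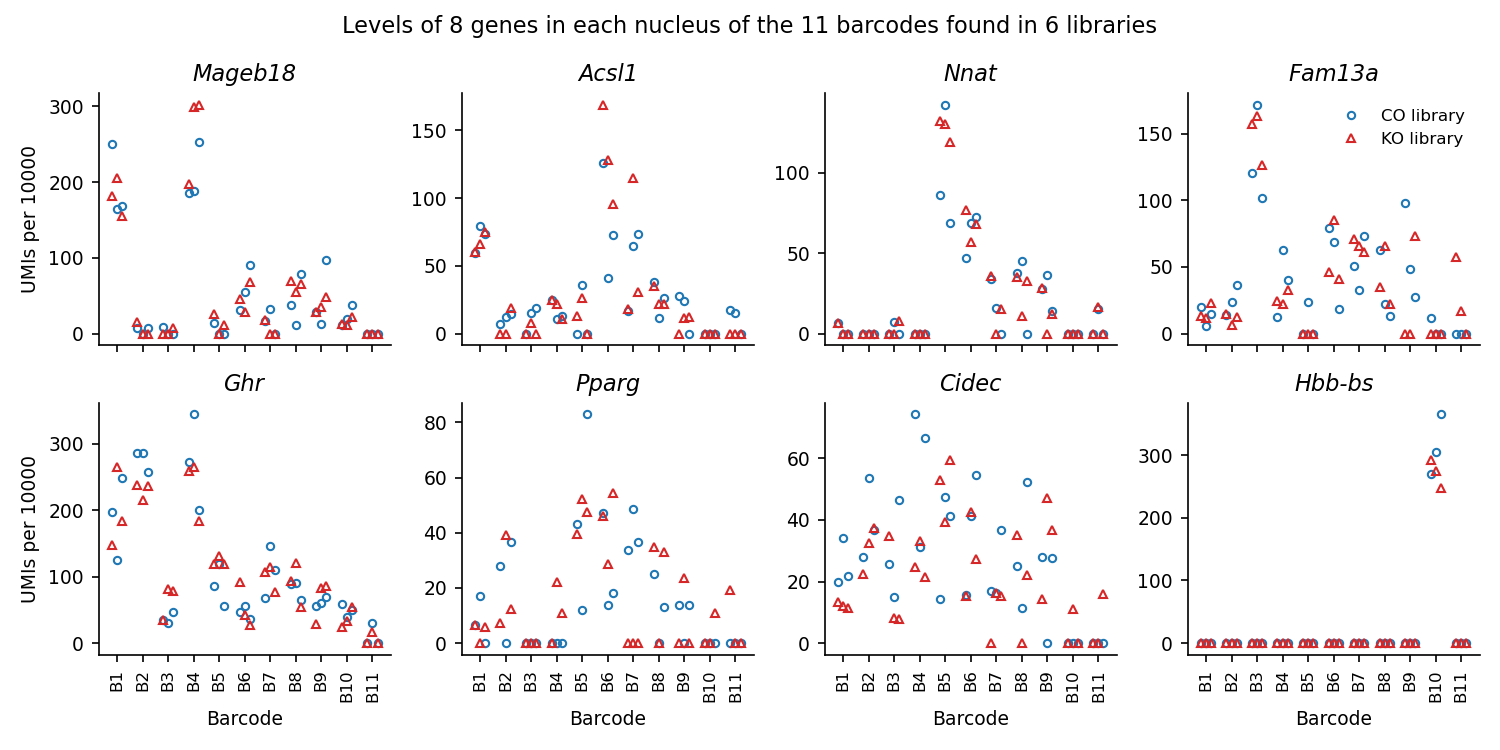
UMIs per 10000 of 8 genes in each nucleus of the 11 barcodes found in 6 libraries, with CO libraries as circles and KO libraries as triangles. The 6 points of a barcode lie together and CO and KO points mix, as for Mageb18 in B1 and B4, Nnat in B5 and B6 and Hbb-bs in B10.

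The comparison of KO with CO cannot decide whether loss of MCT2 went with a change in these nuclei. All 32 adipocyte-like nuclei of the KO libraries carried shared barcodes, so it set nuclei of mostly the same barcodes against each other. Its values are given as a description. The targeted gene itself came first. Over all kept nuclei, Slc16a7 (chromosome 10, 125219270 to 125389465, GRCm38) had 0.0857, 0.118 and 0.220 UMIs per 10000 in CO1 to CO3 and 0.164, 0.0725 and 0.315 in KO1 to KO3. The groups overlapped, and the CO mean of 0.141 ± 0.0701 and the KO mean of 0.184 ± 0.123 (SD, n = 3 each) gave a two-sided p of 0.7 in an exact permutation test. The sources used here do not give the deleted exons, and 3′ counts can lie outside them, so this does not check the deletion. In adipocyte-like nuclei the 4 UMIs of Slc16a7 were in the CO libraries (1, 1 and 2), and none was seen in the KO libraries, where 3 counts would be 2.699 to 3.39 UMIs per 10000. A difference was not detectable at this depth.

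The number of adipocyte-like nuclei was nearly constant, with 12, 12 and 10 in CO1 to CO3 and 10, 10 and 12 in KO1 to KO3, while the number of kept nuclei varied from 1790 to 4776. The shares followed the denominator. They were 0.393%, 0.400% and 0.559% in CO1 to CO3 and 0.209%, 0.506% and 0.351% in KO1 to KO3, with exact (Clopper-Pearson) 95% intervals that overlapped and cover counting error only. The groups overlapped. The CO mean was 0.451 ± 0.0935% and the KO mean 0.355 ± 0.148% (SD, n = 3 each), and the exact permutation test gave a two-sided p of 0.4, where the smallest p it allows is 0.1. Without the shared barcodes only B15 and B16 remained, whose adipocyte-like name rests on few marker UMIs. The shares were then 0.0328%, 0.0334% and 0% in CO and 0% in all 3 KO libraries (exact permutation, two-sided p = 0.4). The KO and CO values of these nuclei come from the same barcodes, and for 13 of the 14 the counts of the 1 to 26 genes tested per barcode agreed within sampling noise across libraries, so the libraries may not be independent replicates for these nuclei.

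**Figure D5:**
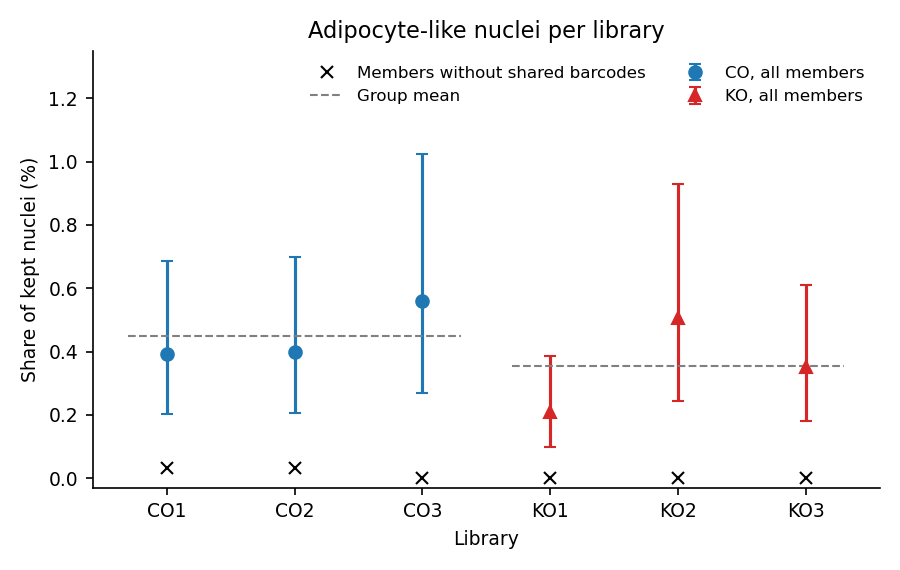
Share of adipocyte-like nuclei among kept nuclei in each library (%), with exact 95% binomial intervals as bars and the group means as dashed lines. The intervals overlap, and the crosses, which leave out the shared barcodes, lie at 0.0328% and 0.0334% in CO1 and CO2 and at 0 in the other libraries.

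No gene was called different between KO and CO in adipocyte-like nuclei. Both groups held mostly the same barcodes, so a lack of calls does not show that adipocytes of KO and CO mice were alike. Of 121 genes with enough counts, edgeR called 0 (0%), DESeq2 called 0, and 4 had an unadjusted p under 0.05 in edgeR. With each barcode kept in 1 library, 8 genes could be tested and 0 were called. Cidec had a log2 fold change (KO minus CO) of -0.23 ± 0.25, Pparg of 0.19 ± 0.37 and Plin1 of 0.64 ± 0.41 (SE). Adipoq, Lipe and Slc16a7 had too few counts. The genes with the smallest p were St3gal4, with 1.30 ± 0.29 (adjusted p = 0.385, edgeR), mt-Cytb, mt-Co3, Ebf1 and mt-Atp6. The mitochondrial genes rested on the CO1 nucleus B15, and without the 2 barcodes found in 1 library mt-Cytb moved from -2.37 to -0.18 and mt-Co3 from -1.94 to 0.15. Without a filter on low counts, 12 genes were called lower in KO, Spp1, Jun and H2-K1 among them, and B15 alone held 58.1% to 92.0% of their CO counts.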

How the data were processed

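The authors isolated nuclei from frozen whole tumors, with additional washes of some samples to lower free RNA, and built droplet-based 3′ libraries. Per the labels they processed the reads with Cell Ranger 3.0.2 and Seurat 5.2.1 on GRCm38, while the file headers name another Cell Ranger version. The deposited values are whole UMI counts per gene and barcode, so a correction for free RNA described in the methods is not visible in them. No correction was made here.

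Nuclei with 100 to 7500 genes and under 20% mitochondrial counts were kept. The members and gene lists were chosen with earlier results of these data known. Counts were summed per library over members and over all other nuclei. They were tested with the quasi-likelihood F-test of edgeR 4.0.16 (R 4.3.3) with its default filter on low counts and Benjamini-Hochberg adjustment, and a call needed a log2 fold change of at least 0.58 in size and an adjusted p of at most 0.05. KO against CO used 3 against 3 libraries with no covariate. Members against other nuclei used the 12 sums with library as a block, without a test of the 13 rule genes. TMM factors of that fit came from sums thinned to 1 depth (20 draws), because plain TMM was biased on simulated sums of so unequal depth. That change, the 2 scalings set against it and the fits with fewer barcodes were chosen after seeing the data. Shares were compared by exact two-sided permutation tests, with Python 3.11.15 and scipy 1.17.1. DESeq2 1.42.0 was an alternative. Doublets were scored with Scrublet (scanpy 1.11.5), whose automatic threshold marked 11 nuclei, too few, so the highest scores were taken at 0.8% per 1000 barcodes (521 nuclei, 1 of them a member) and left out only as an alternative. Labels do not say whether libraries of a group came from separate mice, but the authors describe 3 biological replicates per group. The p-values measure the spread between libraries. For adipocyte-like nuclei these libraries hold mostly the same barcodes, so that spread need not be the spread between mice. What edgeR names the biological coefficient of variation was 27.1% in the KO against CO fit and 22.7% in the other, with the same limit. Tests were tried on simulated counts first.

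Named genes were the 13 rule genes, the 20 genes outside the rule with the largest log2 fold changes among those called higher and counted in members of at least 4 libraries, up to 4 genes per list with the most UMIs in members, a fixed set of monocarboxylate and adipocyte genes, and the 5 genes with the smallest p between KO and CO. Some genes that these rules name are not reported here. Gene positions are from GENCODE vM21. Intervals are exact binomial and cover counting error only.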

Additional observations from a re-analysis of the deposited data

How the results depend on the processing

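The share of adipocyte-like nuclei differed between KO and CO by -0.0955 percentage points, and by -0.171 to -0.0226 with each library left out in turn. It turned to 0.512 (two-sided exact permutation p = 1) only with the nuclei that pass the same exclusions as denominator, and stayed negative under the other alternatives run. Same-numbered libraries did not deviate together in every pair (r of 0.0421 to 0.37 over 121 genes), so the numbers were not taken as pairs. With the replicate block the share difference was -0.0955 (exact sign-flip p = 0.5, smallest possible 0.25), and 0 genes were called between KO and CO. That count was also 0 with each library left out, and 12 with no filter on low counts.

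Against all other nuclei, 1381 genes were called, and 991 to 1233 with each library left out. The count was 265 with each barcode kept in 1 library, 3914 with DESeq2 size factors in edgeR, 2791 with DESeq2 and 4033 with TMM at the sums' own depth. Of these, 88.3%, 12.2%, 16.9% and 10.9% were higher, against 54.8% of the 1381, and the cause of the different counts was not tested. For 55 single genes, 66 of 1025 values against other nuclei under the alternatives lost the call without changing direction, and 16 of them with each barcode kept once. Slc16a7, which was not called, turned to -9.46 there. Between KO and CO, mt-Co3 turned to 0.15 without the barcodes found in 1 library and Pparg to -0.195 without CO2 (up to 0.454 without CO3), neither called. The mitochondrial genes mt-Cytb, mt-Co3, mt-Atp6 and mt-Nd2 were called with no filter on low counts. Median depth of 809.5 UMIs per member limits genes of low expression: 121 genes had enough counts for KO against CO.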

Other observations

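Recurring barcodes outside the rule included other profiles. A barcode kept in all 6 libraries, with 787 to 1036 UMIs in each, held 79 UMIs of Fabp4, which also marks capillary endothelium, and 28 of Cd36, but 0 of Adipoq, Plin1 and Cidec. Another barcode kept in 6 libraries, with 734 to 954 UMIs, held 10 UMIs each of Fabp4 and Cd36 and none of Adipoq, Plin1 and Cidec.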
